A study of Homo sapiens with 4 samples.

Results

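Expression of 9 genes of antigen presentation by the major histocompatibility complex (MHC) was examined in CD31+ cells derived from H1 cells, an established human embryonic stem cell line. The genes were picked by name, as 6 of the class I pathway (HLA-B, HLA-C, HLA-E, B2M, TAP1 and TAPBP) and 3 of the class II pathway (CD74, HLA-DRA and CIITA). Each matched 1 of the 58229 genes in the deposited table. RNA came from day 8 of hematopoietic differentiation, after activin A and BMP4 followed by VEGF and bFGF. The groups were H1-derived cells without overexpression (Control, 2 libraries) and H1-derived cells with overexpression of HAND1, a transcription factor of mesoderm (HAND1_OE, 2 libraries). Both groups came from the same line and went through the same differentiation and the same selection for CD31 (PECAM1), a surface protein of endothelial and early blood cells. The study's scheme induces HAND1 with doxycycline late in the differentiation. The construct, the number of clones and whether Control cells carry it or received doxycycline are not given in the sources used here. The methods speak of independent experiments for every analysis, in a number above the 2 libraries per group, and do not say whether these libraries were separate cultures. P-values thus measure only the spread between these libraries, pooled in part across genes, and that spread may be technical.

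Class I molecules consist of a heavy chain, such as HLA-B, HLA-C or HLA-E, and the light chain beta-2-microglobulin (B2M). They show peptides made inside the cell to T cells and natural killer cells. Most peptides are cut by the proteasome, pumped into the endoplasmic reticulum by the TAP1/TAP2 transporter and loaded with the help of tapasin (TAPBP). Class II molecules, such as the HLA-DR dimer that contains HLA-DRA, present peptides from endosomes and are mainly found on professional antigen-presenting cells. The invariant chain CD74 escorts class II molecules to endosomes, and CIITA is the coactivator that switches their genes on. Interferon gamma is the classical inducer of both pathways. Class I promoters hold sites for interferon regulatory factors and NF-kappa-B, and the promoters of both classes hold a Y box that binds NF-Y.

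Promoters are shown because they carry these elements, for the class I genes with the lowest values relative to Control (HLA-B, HLA-C and TAP1), for B2M as a class I gene without such a difference, and for CD74. RefSeq windows (GRCh38.p14) were at hand for 6 of the 9 genes, and HLA-E, HLA-DRA and CIITA had none. Each line gives the 250 bases before the annotated start, on the strand of the gene, and capitals mark matches to any of the motifs searched on both strands. The interferon response motif was GAANNGAAA, or the same letters with 3 in place of 2 free bases between GAA and GAAA. The NF-kappa-B motif was GGG, 2 free bases, TT, 1 free base and CC, and the Y box was ATTGG. Matches can overlap and then appear as 1 run of capitals. The windows lie at chr6:31357180-31357429 (HLA-B, minus strand), chr6:31272093-31272342 (HLA-C, minus strand), chr6:32853705-32853954 (TAP1, minus strand, the upstream one of its 2 annotated starts), chr15:44711267-44711516 (B2M, plus strand) and chr5:150412911-150413160 (CD74, minus strand).
HLA-B: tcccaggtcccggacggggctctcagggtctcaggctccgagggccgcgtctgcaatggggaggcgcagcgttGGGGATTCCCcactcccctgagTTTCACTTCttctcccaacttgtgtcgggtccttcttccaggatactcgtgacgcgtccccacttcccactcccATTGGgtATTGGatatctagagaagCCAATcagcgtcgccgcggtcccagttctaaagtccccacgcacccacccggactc
HLA-C: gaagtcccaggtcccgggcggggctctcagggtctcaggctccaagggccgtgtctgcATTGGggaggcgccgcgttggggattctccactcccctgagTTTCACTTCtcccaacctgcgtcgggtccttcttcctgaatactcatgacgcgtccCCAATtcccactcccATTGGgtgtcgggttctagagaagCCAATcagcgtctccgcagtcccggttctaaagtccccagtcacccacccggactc
TAP1: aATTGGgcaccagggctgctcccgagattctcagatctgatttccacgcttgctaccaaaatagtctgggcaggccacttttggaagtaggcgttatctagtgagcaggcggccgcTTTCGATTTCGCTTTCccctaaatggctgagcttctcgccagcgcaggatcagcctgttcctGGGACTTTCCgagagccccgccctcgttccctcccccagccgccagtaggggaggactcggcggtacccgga
B2M: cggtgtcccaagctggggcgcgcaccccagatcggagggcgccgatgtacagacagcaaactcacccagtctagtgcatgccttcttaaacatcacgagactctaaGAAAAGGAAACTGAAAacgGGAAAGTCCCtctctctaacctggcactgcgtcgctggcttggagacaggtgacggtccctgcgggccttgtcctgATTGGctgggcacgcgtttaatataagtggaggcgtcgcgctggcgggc
CD74: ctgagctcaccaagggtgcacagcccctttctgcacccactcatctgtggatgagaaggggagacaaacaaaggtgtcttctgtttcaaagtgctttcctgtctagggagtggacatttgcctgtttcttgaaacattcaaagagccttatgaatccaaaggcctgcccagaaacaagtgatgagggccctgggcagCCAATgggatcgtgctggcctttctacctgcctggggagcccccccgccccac

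An interferon response match stood in the windows of HLA-B, HLA-C, TAP1, B2M and TAPBP. Its first base lay 155 bases before the start in HLA-B and 151 bases before it in HLA-C, in the same letters in both. TAP1, B2M and TAPBP each had 2 overlapping matches of the longer form. The shorter form occurred in 6.56% of all 35116 windows and the longer form in 6.86%. An NF-kappa-B match, present in 5.07% of all windows, was found in HLA-B, TAP1, B2M and TAPBP. Y boxes, present in 32% of all windows, were found in each of these genes but TAPBP. In the window of CD74 the Y box was the only match, 53 bases before the start. The upstream start of TAP1 lies 488 bases from that of PSMB9, an interferon-inducible proteasome subunit that is read in the opposite direction.

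The levels of the 9 genes spanned a wide range. Values are FPKM, which are meant to correct for transcript length and library depth, and levels are set side by side across genes on that basis. The length used for HLA-B is not known here, and heavy chain transcripts share sequence with other genes, so the order among them is approximate. In Control, B2M was highest at 717 ± 3.94 FPKM (SD, n = 2), above 99.3% of all genes tested. HLA-B followed at 278 ± 59.1 FPKM, HLA-E at 120 ± 5.51 FPKM and HLA-C at 73.3 ± 5.17 FPKM, and the libraries of these neighbours did not overlap. CD74 (18.1 ± 1.35 FPKM) and TAPBP (17.0 ± 1.94 FPKM) were next, and their libraries overlapped. TAP1 stood at 3.46 ± 1.27 FPKM. CIITA and HLA-DRA were close to 0, at 0.112 ± 0.0632 and 0.103 ± 0.0719 FPKM, and could not be ranked. In HAND1_OE the order was the same but for HLA-B, whose 2 libraries lay so far apart that they enclosed both HLA-E and HLA-C, and for TAPBP, which stood above CD74 without overlap.

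**Figure D1:**
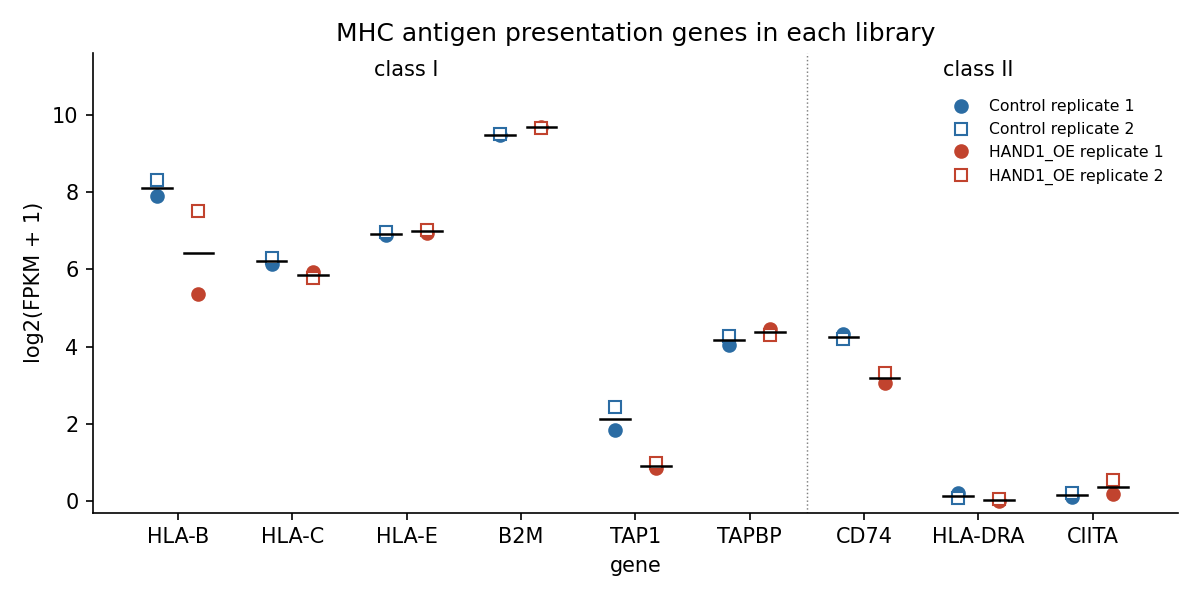
Level of each gene in each library, as log2(FPKM + 1), with class I genes to the left of the dotted line and class II genes to the right. Circles are replicate 1, squares are replicate 2 and bars are group means. HLA-B, TAP1 and CD74 lie lower in HAND1_OE than in Control, the other class I genes are nearly level, and HLA-DRA and CIITA lie near 0.

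The libraries were similar in size. They summed to 536284 to 606609 FPKM with 13989 to 14542 genes at 1 FPKM or more. A table of FPKM holds no counts. For genes at low values under 0.1 FPKM, the most common ratio of Control replicate 1 to each other library was taken instead. These ratios, each shared by 243 to 298 genes, were read as depths of 0.979 to 1.19 times that of Control replicate 1. HAND1 was at 12.1 and 14.3 FPKM in Control against 520 and 517 FPKM in HAND1_OE. CD31+ identity was checked with 8 endothelial markers, whose sum ran from 1627 to 2086 FPKM in Control and from 1748 to 2051 FPKM in HAND1_OE, with PECAM1 at 91.97 to 160 FPKM. By limma 0 of the 8 were called (1 lower and 0 higher at an unadjusted p under 0.05), but the sum rests on the abundant ones, and ROBO4 was at 7.91 and 10.7 FPKM in Control against 1.56 and 5.52 FPKM in HAND1_OE (log2 fold change -1.32, adjusted p = 0.217). TIE1 and KDR also lay lower without overlap, at -0.33 and -0.06. Of all genes tested, 30.1% lay lower without overlap. Of the 14622 genes that reached 1 FPKM in 2 or more libraries, 4.16% were called different between the groups (limma, Benjamini-Hochberg adjusted p under 0.05), 2.04% higher and 2.11% lower in HAND1_OE. The median log2 fold change of all genes tested was -0.078. Fold changes were taken on the scale of log2(FPKM + 1), where changes of weakly expressed genes come out too small.

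Of the 9 genes, 7 passed the filter on low values and 1 was called. CD74 fell, and 0 of the 6 class I genes were called in either direction. At an unadjusted limma p under 0.05, 4 of the 7 tested genes were lower and 0 were higher, while 10.6% of all genes tested were lower and 6.82% higher at that level. HLA-B and HLA-C, which are among the 4, lay only just under that level and rose above it under several alternatives given below. TAP1, which is also among the 4, was below 1 FPKM in HAND1_OE and passed the filter only through Control. Both HAND1_OE libraries lay below both Control libraries for 4 of the 7 genes and above them for 2. Among all genes tested the groups were apart downward in 30.1% and upward in 16.2%. The 6 class I genes had a median log2 fold change of -0.15. Leaving out Control replicate 1 gave a median of 0.017 and leaving out Control replicate 2 gave 0.11, since TAP1 then no longer passed the filter.

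**Figure D2:**
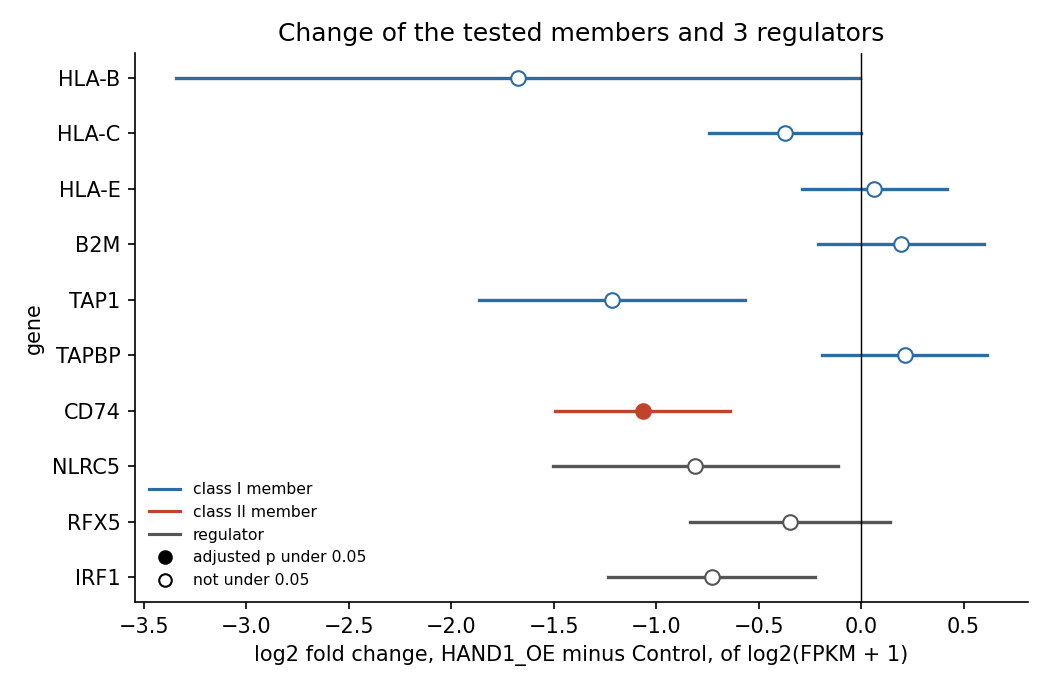
Log2 fold change of HAND1_OE against Control, as a difference of log2(FPKM + 1), for the 7 tested genes and 3 regulators. Lines are the 95% confidence interval from limma. The regulators are NLRC5, IRF1 and RFX5. Others are not drawn, among them IRF8, which lay above Control (1.16). Filled points passed an adjusted p of 0.05. CD74 (-1.07) is the only filled point, and HLA-B has the widest interval, from -3.35 to -0.0050.

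CD74 (ENSG00000019582.14, GRCh38 chromosome 5, 150401637 to 150412929) was at 19.1 and 17.2 FPKM in Control against 7.32 and 8.997 FPKM in HAND1_OE. The groups did not overlap, and the HAND1_OE mean was 45.0% of the Control mean. The log2 fold change was -1.07 (standard error 0.172, 95% interval -1.49 to -0.64, limma adjusted p = 0.0354). Without Control replicate 1 the log2 fold change was -0.99 and the adjusted p = 0.0762, so the call rests on that library. When the filter was only a value above 0 in 1 library, the adjusted p was 0.174.

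The other class II genes chosen were hardly detected. HLA-DRA (ENSG00000204287.13, chromosome 6, 32439842 to 32445046) was at 0.154 and 0.0519 FPKM in Control, was listed at 0 in HAND1_OE replicate 1 and was at 0.0441 FPKM in HAND1_OE replicate 2. CIITA (ENSG00000179583.18, chromosome 16, 10866222 to 10932281) was at 0.0677 and 0.157 FPKM in Control against 0.126 and 0.466 FPKM in HAND1_OE. Neither reached the filter, so neither was tested and no fold change is given. CD74 transcripts were thus present in both groups at levels far above those of HLA-DRA and CIITA.

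The wider class II list held 15 further genes, of which 9 were tested and 0 were called by limma (2 lower and 2 higher at an unadjusted p under 0.05). Their median log2 fold change was 0.15, and 6 were above 0 and 3 below. Of all genes tested, 10.6% were lower and 6.82% higher at that unadjusted level, and 4.16% were called. HLA-DQB1, a class II beta chain, was at 5.32 and 5.24 FPKM in Control against 2.86 and 2.66 FPKM in HAND1_OE (log2 fold change -0.74, limma adjusted p = 0.0879). The DP chains lay on the other side. HLA-DPA1 was at 2.63 and 3.59 FPKM in Control against 6.39 and 4.85 FPKM in HAND1_OE (log2 fold change 0.69, adjusted p = 0.191). HLA-DPB1 was at 12.9 and 11.1 FPKM in Control against 17.6 and 14.5 FPKM in HAND1_OE (0.39, adjusted p = 0.349). For each of these chains the groups did not overlap, and none passed. HLA-DPA1 and HLA-DPB1 overlap on opposite strands, and the counting is not stated to use strand, so their reads may not be told apart.

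Enzymes that prepare class II peptides also lay on both sides of Control. IFI30, a thiol reductase of lysosomes, was at 3.54 and 2.50 FPKM in Control against 0.688 and 1.04 FPKM in HAND1_OE (log2 fold change -1.10, adjusted p = 0.0719). LGMN, an endosomal protease, was at 56.2 and 46.2 FPKM in Control against 102.6 and 72.5 FPKM in HAND1_OE (0.75, adjusted p = 0.154). HLA-DRB1 and HLA-DMA, the latter a subunit of the class II peptide exchanger, had log2 fold changes of -0.04 and 0.10.

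The tested markers of blood cells were lower in HAND1_OE, as CD74 was. In a list of 14 markers of blood and antigen-presenting cells, the summed level was 102 and 123 FPKM in the Control libraries and 8.54 and 13.2 FPKM in the HAND1_OE libraries. The 5 markers that passed the filter were called lower, with log2 fold changes from -3.17 to -2.36 against -1.07 for CD74. Of all genes tested, 2.11% were called lower. LYZ passed the filter only through Control. The largest changes were those of AIF1 (log2 fold change -3.17), SPN (-3.13), which encodes CD43, and TYROBP (-3.11). PTPRC, which encodes CD45, was at most 0.0227 FPKM in any library, and CD86 and MS4A1, markers of activated antigen-presenting cells and of B cells, were listed at 0 in all libraries. Among the markers below the filter, CD14 lay above Control without overlap, at 0.228 and 0.223 FPKM in Control against 0.246 and 0.676 FPKM. CSF1R, ITGAX and FLT3 lay below Control without overlap, and for PTPRC, ITGAM and CD79A the groups overlapped. Among the genes tested, to which these do not belong, the groups were apart downward in 30.1% and upward in 16.2%. Whether a change in cell composition contributed to the fall of CD74 was not tested. In bulk RNA, fewer cells of a type and less RNA per cell cannot be told apart.

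**Figure D3:**
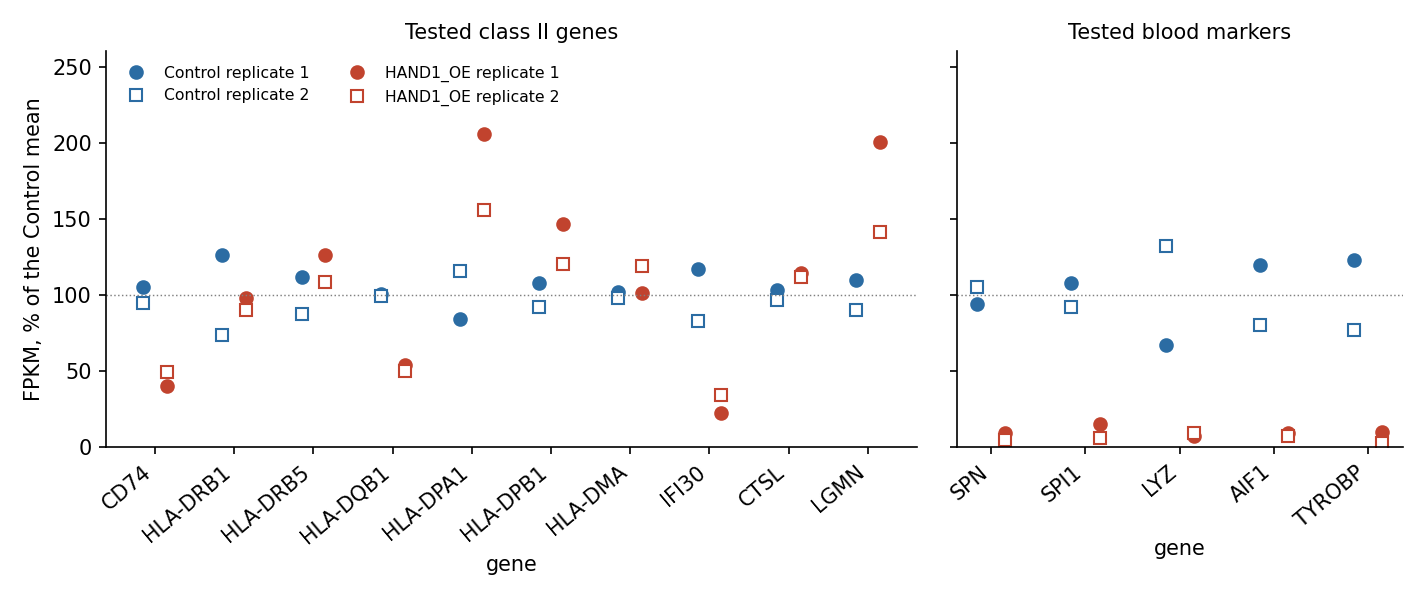
FPKM of each library as a percentage of the Control mean of the gene, for the 10 tested class II genes (left) and the 5 tested blood markers (right). Circles are replicate 1 and squares replicate 2. CD74, HLA-DQB1 and IFI30 lie below Control, HLA-DPA1 and LGMN lie above it, and the HAND1_OE libraries of each blood marker lie lowest of all.

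Among class I heavy chains, HLA-B (ENSG00000234745.10, chromosome 6, 31269491 to 31357188) was at 236 and 320 FPKM in Control against 39.9 and 181 FPKM in HAND1_OE. Both HAND1_OE libraries lay below both Control libraries, but the gap between them was wider than that between the higher one and the lower Control library. The log2 fold change was -1.68 (standard error 0.671) and did not pass (limma adjusted p = 0.286). It was -2.75 without HAND1_OE replicate 2, where it passed (adjusted p = 0.000311), and -0.60 without HAND1_OE replicate 1 (adjusted p = 0.376), so 1 library decides the size of the difference. In HAND1_OE replicate 1 the value was 0.220 times that of the next lowest library. Of 2166 genes above 50 FPKM in any library, 3 were as low or lower in that library alone, HLA-B included, and 1 gene was in each of the other libraries. This count was chosen after the values of HLA-B were seen.

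HLA-C (ENSG00000204525.16, chromosome 6, 31268749 to 31272130) was at 69.6 and 77.0 FPKM in Control against 59.6 and 53.3 FPKM in HAND1_OE. The groups did not overlap, and the log2 fold change of -0.37 (standard error 0.149) did not pass (adjusted p = 0.287). HLA-E (ENSG00000204592.8, chromosome 6, 30489467 to 30494205), a heavy chain that is mainly read by natural killer cells, was at 116 and 124 FPKM in Control against 122 and 129 FPKM in HAND1_OE. The groups overlapped, and the log2 fold change was 0.06 (95% interval -0.29 to 0.42). HLA-F, a further heavy chain of the wider list, was at 4.85 and 4.20 FPKM in Control against 1.73 and 1.95 FPKM in HAND1_OE (-0.96, adjusted p = 0.0568). Its limma adjusted p was 0.0391 with 1 FPKM in every library, 0.0455 without the limma trend and 0.0447 with the replicate number as a block. It was 0.0602 with a pseudocount of 0.1, 0.0792 after quantile normalization and 0.0682 after median-ratio scaling. When the filter was only a value above 0 in 1 library, it was 0.223.

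Transcripts of the heavy chains share sequence with those of other genes. Of the 50-base windows in the longest coding transcript, 20.96% were also found in a transcript of another gene for HLA-B, 6.71% for HLA-C and 5.76% for HLA-E, but 0 of 1656 for B2M and 0 of 1678 for CD74. Most of the shared windows of HLA-B, 18.5% of all its windows, were found in AL671883.2, a gene known only by a clone name. The annotated span of HLA-B encloses the start of HLA-C. Its 10 transcripts in GENCODE release 29 are 147 to 1547 nt long, and the length used for its FPKM is not known here. The alleles that H1 carries can also differ from the reference.

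B2M (ENSG00000166710.17, chromosome 15, 44711477 to 44718877) was at 714 and 719 FPKM in Control against 828 and 813 FPKM in HAND1_OE. The groups did not overlap, yet the log2 fold change of 0.19 (standard error 0.163, 95% interval -0.21 to 0.60) did not pass (adjusted p = 0.642). Within each group the B2M libraries lay close together, and limma draws the standard error in part from the spread of other genes. Light and heavy chains were then set side by side in each library. B2M stood at 1.69 and 1.38 times the sum of HLA-B, HLA-C and HLA-E in Control and at 3.73 and 2.23 times that sum in HAND1_OE. HLA-B made up 55.9% and 61.4% of the sum in Control and 18.0% and 49.8% in HAND1_OE. The ratio was highest in the library with the low HLA-B value, and it was computed with the values known, so no test is given.

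**Figure D4:**
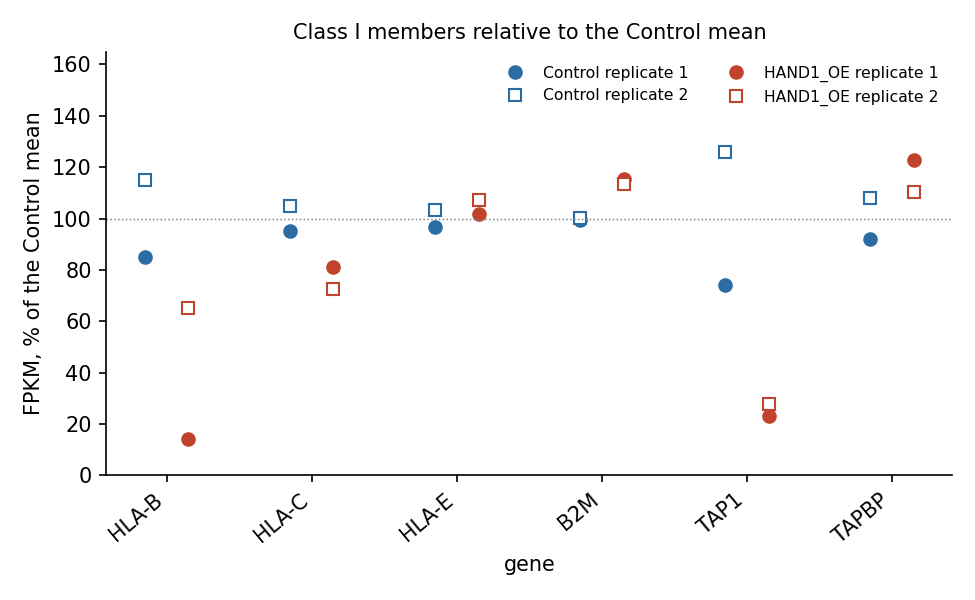
FPKM of each library as a percentage of the Control mean of the gene, for the 6 class I genes. Circles are replicate 1 and squares replicate 2. HLA-B in HAND1_OE replicate 1 and TAP1 in both HAND1_OE libraries lie lowest, and B2M, HLA-E and TAPBP lie at or slightly above Control.

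TAP1 (ENSG00000168394.10, chromosome 6, 32845209 to 32853978), a subunit of the peptide transporter, was at 2.56 and 4.36 FPKM in Control against 0.800 and 0.963 FPKM in HAND1_OE. The groups did not overlap, and the HAND1_OE mean was 25.5% of the Control mean. The log2 fold change of -1.22 (standard error 0.260, 95% interval -1.87 to -0.57) did not pass (limma adjusted p = 0.0728). With a pseudocount of 0.1 it was -1.82 (adjusted p = 0.0703). Tapasin was on the other side. TAPBP (ENSG00000231925.11, chromosome 6, 33299694 to 33314387) was at 15.6 and 18.3 FPKM in Control against 20.8 and 18.7 FPKM in HAND1_OE (log2 fold change 0.21, adjusted p = 0.601).

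Of the 17 further class I genes, 14 were tested and 0 were called by limma (4 lower and 0 higher at an unadjusted p under 0.05), with a median log2 fold change of -0.085. Of all genes tested, 10.6% were lower and 6.82% higher at that level, and 4.16% were called. The genes that lie beside TAP1 in the MHC were lower in value as well. PSMB9 was at 2.81 and 2.20 FPKM in Control against 0.0759 and 0.941 FPKM in HAND1_OE (log2 fold change -1.27, adjusted p = 0.118). Like TAP1, it passed the filter only through Control, and it is among the 4 lower genes. PSMB8, a second subunit of the immunoproteasome, was at 6.05 and 6.04 FPKM in Control against 3.80 and 2.27 FPKM in HAND1_OE (-0.83, adjusted p = 0.147). TAP2, the partner of TAP1, was at 2.42 and 5.21 FPKM in Control against 2.43 and 1.58 FPKM in HAND1_OE, where the groups overlapped. PSMB10, the immunoproteasome subunit encoded outside the MHC, had a log2 fold change of -0.01. The spans of TAP1 and PSMB9 overlap, on opposite strands, so their reads may not be told apart, and 15.2% of the 50-base windows of TAP1 were found in a transcript of another gene, mostly the noncoding PSMB8-AS1. The chaperones CALR, CANX and PDIA3 had log2 fold changes of 0.21, -0.01 and 0.17.

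The regulators of both pathways were followed last. NLRC5, the class I counterpart of CIITA, was at 1.87 and 2.77 FPKM in Control against 0.553 and 1.27 FPKM in HAND1_OE (log2 fold change -0.81, adjusted p = 0.222). IRF1, an interferon regulatory factor, was at 5.98 and 7.31 FPKM in Control against 4.10 and 3.13 FPKM in HAND1_OE (-0.73, adjusted p = 0.140). RFX5, a subunit of the complex that binds class I and class II promoters, had a log2 fold change of -0.35 (adjusted p = 0.463). IRF8, an interferon regulatory factor of blood and antigen-presenting cells, lay on the other side. Its levels were 0.208 and 0.357 FPKM in Control against 1.59 and 2.14 FPKM in HAND1_OE (1.16, adjusted p = 0.0583), and it passed the filter only through HAND1_OE. The adjusted p of IRF8 was 0.0467 after quantile normalization, 0.0365 without the limma trend and 0.0383 with the replicate number as a block. That adjusted p was 0.0788 with a pseudocount of 0.1 and 0.0543 after median-ratio scaling. When the filter was only a value above 0 in 1 library, it was 0.198.

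By list, 0 of 7 shared promoter factors (median -0.15) and 0 of 9 genes of interferon gamma signalling (median -0.0084) were called. Of 7 NF-kappa-B genes, 1 was called (median 0.0020). That gene was TNFAIP3, a feedback inhibitor of NF-kappa-B, which rose from 3.31 and 6.68 FPKM in Control to 23.6 and 18.3 FPKM in HAND1_OE (log2 fold change 1.92, standard error 0.308, limma adjusted p = 0.0354). NFKBIA had the lowest log2 fold change of that list, at -0.42 (limma adjusted p = 0.255). TNFAIP3 was the only call among the 46 tested genes of the 5 wider lists. In these lists 4 genes were higher and 8 lower at an unadjusted limma p under 0.05. Of all genes tested, 6.82% were higher and 10.6% lower at that level, and 4.16% were called. PSMB9, among the 8, and IRF8, among the 4, passed the filter only through the group in which they were higher.

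Genes with the most similar profiles over the 4 libraries were picked for the class I and the class II gene with the largest change on the scale of log2(FPKM + 1). With a pseudocount of 0.1 TAP1 (-1.82) would have taken the place of HLA-B (-1.69). Likeness was the root mean square difference of log2(FPKM + 1) after centring each gene on its mean. For CD74 these were D21S2088E (0.0392), PLXDC2 (0.0461) and SPNS2 (0.0482), with log2 fold changes of -1.06, -1.06 and -1.05. For HLA-B they were C8orf4 (0.296), ABTB2 (0.306) and CXorf36 (0.308), each lowest in HAND1_OE replicate 1 at 5.68, 1.54 and 8.95 FPKM. The differences were larger for HLA-B than for CD74. With 4 libraries many genes share a profile, so this is a description only.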

How the data were processed

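RNA-seq libraries of day 8 CD31+ cells (2 per group) were prepared by the authors with TruSeq reagents. The authors deposited 1 table of values per gene and library with no unit. The deposited values were read as FPKM, fragments that the authors scaled by gene length and library depth, since the study shows these cells in that unit and the values are not whole. The submitters' processing notes name BWA, Bowtie, RSEM and hg19 with no versions or roles. The coordinates in the table nevertheless equal those of GENCODE release 29 (GRCh38) for 97.6% of the genes found there. Starts are printed counted from 1. Of 58365 rows, 45 Y copies and 91 repeated gene IDs were left out, keeping the row with the highest mean. MARCH1, which the table holds as a date, was matched by its ID.

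Groups were taken from the sample titles. Genes that reached 1 FPKM in 2 or more libraries (14622) were fitted on the scale of log2(FPKM + 1) with limma 3.58.1 (R 4.3.3) and a mean-variance trend. P-values were two-sided, with Benjamini-Hochberg adjustment across the genes tested. The exact permutation test was not used, because its smallest possible p here is 0.333. FPKM holds no counts, so no counting interval is given. The 9 genes and the lists were chosen with earlier results of these data known. Named were HAND1, the 9 genes, up to 3 called genes with the largest changes from each list, 3 regulators (NLRC5, IRF1 and RFX5) and the genes with the most similar profiles. Other genes were named after their values were seen. The result of a further regulator is not reported here. Of the remaining marker lists, mesenchymal markers had 2 calls among 7 tested, PDGFRB and LUM, both higher (log2 fold change 2.03 and 1.41), at a median of 1.16, while COL1A2 (-0.82) and COL1A1 (-0.23) lay below Control without overlap and were not called. Pluripotency markers had 0 calls among 3 tested, at a median of -0.70, and endothelial markers had 0 among 8, at a median of 0.050. Alternatives were another pseudocount, 2 other filters, 2 normalizations, no trend, the replicate number as a block and each library left out.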

Additional observations from a re-analysis of the deposited data

How the results depend on the processing

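The directions of the 7 tested genes were the same under every alternative that gave a value. HLA-B and HLA-C lay just under the unadjusted limma level of 0.05 in the main fit. Both lay above it with a pseudocount of 0.1, after median-ratio scaling and without the limma trend. Both stayed under it with 1 FPKM in every library and with the replicate number as a block. HLA-B but not HLA-C lay above it after quantile normalization and with only a value above 0 in 1 library required. TAP1 gave none with 1 FPKM required in every library or without either Control library. When no filter but a value above 0 in 1 library was set, the log2 fold change of HAND1 was 5.20 at a limma adjusted p = 0.153. Under that filter 0 genes were called higher and 0 lower over all genes (1458 and 2352 at an unadjusted p under 0.05), 0 of the 9 genes were called lower (CD74 at an adjusted p = 0.174), and 0 genes of the wider lists were called higher. More genes (29860) were tested and adjusted for under that filter, and the unadjusted limma p also changed. For CD74 it was 0.00341 against 0.00104 with the main filter, and for HAND1 8.9e-06 against 9.9e-08. The cause of the loss of calls was not tested. With the replicate number as a block, 597 genes were called higher and 712 lower, 2 of the 9 genes were called lower (CD74 and TAP1, whose adjusted p was 0.0419), and the wider lists had 3 higher calls and 1 lower. The labels do not say that numbers pair the libraries, and the correlation of the replicate differences between the groups was 0.383 across genes. In the wider lists, 2 genes were called higher after quantile normalization and 2 higher and 1 lower without the limma trend, and 1 was called lower with 1 FPKM in every library. The class I median was 0.063 with 1 FPKM in every library, where TAP1 is lost, and -0.062 after median-ratio scaling.

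Without 1 library each in turn, the log2 fold change of HAND1 ran from 5.08 to 5.31, 270 to 313 genes were called higher and 212 to 431 lower. In these fits 1 group has a single library, which is assumed to vary like the others. From 0 to 2 of the 9 genes were called lower and 0 higher in each fit, and in the wider lists 1 to 2 were called higher and 0 to 2 lower. The class I median ran from -0.17 to 0.11, the log2 fold change of HLA-B from -2.75 to -0.60 and that of CD74 from -1.20 to -0.93. Low FPKM values, as of HLA-DRA and CIITA, allow no statement on change.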
